A study of Homo sapiens with 6 samples.

Results

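The 9 genes described here encode the cyclin-dependent kinases of the cell cycle, *CDK1*, *CDK2*, *CDK4* and *CDK6*, the phosphatases *CDC25A*, *CDC25B* and *CDC25C*, and the kinases *WEE1* and *PKMYT1*. They were chosen by name and role, with earlier results of these data known. All 9 were found by Ensembl identifier among the 58336 genes of the count table. Messenger RNA was sequenced from A2780, an ovarian cancer cell line that the study lists as endometrioid, after vehicle (DMSO) in 3 libraries or after 6 µM TH588 for 48 h in 3 libraries. TH588 is a first-generation mitotic inhibitor of MTH1, the enzyme that clears oxidized nucleotides from the nucleotide pool. The study also reports that MTH1 inhibitors transiently stalled A2780 cells in mitosis, to a lesser extent than paclitaxel did. A2780 is a single cell line, and the biological replicates of each group are named A, B and C.

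A cyclin-dependent kinase works only with a bound cyclin partner, and a phosphate on its ATP-binding loop shuts it off. WEE1 in the nucleus and PKMYT1 at internal membranes add that phosphate, and the CDC25 phosphatases take it away. The balance between them sets when CDK1 with cyclin B starts mitosis and helps to set when CDK2 starts S phase. CDK4 and CDK6 act earlier, with D cyclins, on the retinoblastoma protein. After DNA damage, checkpoint kinases inactivate CDC25 proteins and so hold the cycle, while p21 binds CDK complexes directly.

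Gene counts summed to 28537837 in TH588 replicate A and to between 77634048 and 99074175 in the other 5 libraries, and *SNORD3A* took 21.9% of the former against 7.68% to 13.0% of the latter. Levels below are in CPM (read counts relative to a library size that was scaled by the TMM method), and levels of different genes are compared only per kilobase of exon. Of 9 markers of epithelial ovarian cancer, 7 (*PAX8*, *WT1*, *MUC16*, *KRT7*, *KRT8*, *CDH1* and *ESR1*) stayed under 1 CPM in both groups. *KRT18* exceeded it in both groups, and *EPCAM* had a mean of 0.644 CPM with DMSO and 4.74 CPM with TH588. The 9 markers summed to 3.82 to 4.60 CPM with DMSO and 11.0 to 12.2 CPM with TH588. Leukocyte and endothelial markers summed to at most 0.411 and 0.132 CPM in any library, and the 3 fibroblast markers, which a cell line can also express, to 11.4 to 13.5 CPM with DMSO and 13.6 to 14.7 CPM with TH588. The part of these marker levels in the results below was not tested.

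Of the 9 genes, 8 were abundant enough to be tested, and all 8 were lower after TH588 at an adjusted p under 0.05 in edgeR's quasi-likelihood test. Among all 15844 genes tested, 25.3% were lower by the same rule and 49.6% were called in either direction. *CDC25A* and *CDK1* fell most, by 73.0% and 72.5%, *PKMYT1* fell by 58.4%, and *CDK2*, *WEE1* and *CDK4* fell by 44.8%, 42.5% and 37.6%. *CDC25C* fell less, and the call on *CDC25B* was near the threshold. The median log2 fold change was -0.83 over the 8 genes and 0.02 over all genes tested. In bulk RNA, fewer cells in a phase of the cycle and less RNA per cell cannot be told apart.

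**Figure D1:**
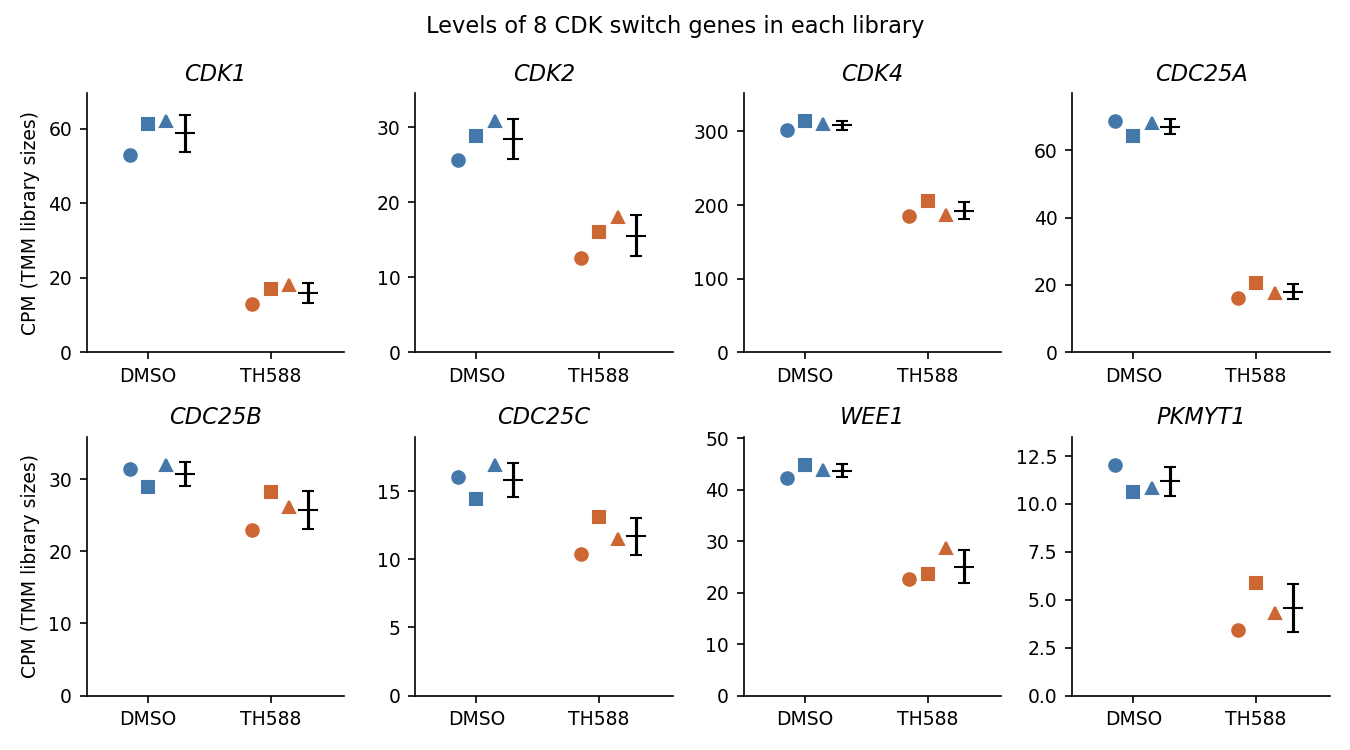
Levels of the 8 tested genes in CPM on TMM library sizes, with linear axes from 0; circles, squares and triangles are replicates A, B and C, and the black bars give the mean ± SD of 3 libraries. In each panel the lowest DMSO library lies above the highest TH588 library, by a wide gap for *CDK1* and *CDC25A* and by a narrow one for *CDC25B*.

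In none of the 8 genes did the CPM of the 2 groups overlap, with every TH588 library below every DMSO library. Such a separation downward occurred in 29.0% of all genes tested, and a separation in either direction in 57.7%. TH588 replicate A, the shallowest library, was the lowest of its group in 8 of the 8 genes, against 39.2% of all genes tested. Without that library 7 of the 8 genes were still called lower, and the log2 fold changes ran from -1.81 for *CDC25A* to -0.17 for *CDC25B*.

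*CDK1* (ENSG00000170312) lies on chromosome 10 of GRCh38, from 60778331 to 60794852 on the plus strand, and encodes the kinase that drives entry into mitosis. In replicates A, B and C it had 53.0, 61.2 and 62.0 CPM with DMSO, against 12.9, 17.1 and 18.0 CPM with TH588. The groups lay far apart, with the highest TH588 library well under the lowest DMSO library. On average it fell from 58.8 ± 4.97 to 16.0 ± 2.71 CPM (SD, n = 3 each). The log2 difference, TH588 minus DMSO, was -1.86 ± 0.12 (standard error), with an edgeR adjusted p of 2.46e-07, and 99.6% of the genes tested had a higher one. No exon of another gene in the table overlaps its exons.

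RefSeq's table of promoter windows on GRCh38.p14, each 250 bases before to 50 after a start site, holds 14 windows for 6 of the genes. They are *CDK1*, *CDK4*, *CDK6*, *CDC25A*, *CDC25B* and *CDC25C*, and the other 3 are *CDK2*, *WEE1* and *PKMYT1*. The windows were searched on both strands for letters of promoter elements that are known from cell cycle genes. These were the cell cycle homology region (the letters TTTGAA, or else TTTAAA), the CCAAT box (CCAAT), E2F-type sites (the letters TTCCCGC, or else TTGGCGC) and the GC box (GGGCGG). At the start site of its main (MANE) transcript, *CDK1* had 3 matches to TTTGAA, 2 to CCAAT, 1 to TTGGCGC and 2 to GGGCGG. Of all 35116 windows, 15.2% hold TTTGAA, 12.2% TTTAAA, 34.6% CCAAT, 6.55% TTCCCGC, 3.04% TTGGCGC and 45.0% GGGCGG. A match is a description of letters and does not show that a factor binds there.

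A stretch of 30 bases of *CDK1* lies from 82 to 53 bases before that start, at chr10:60778396-60778425 on the plus strand. It holds a closely spaced CCAAT box (read as ATTGG on this strand) and TTTGAA, 1 of 2 and 1 of 3 such matches in the window. The other TTTGAA matches lie at positions -13 and 10 from the start, and the other CCAAT match at -46. The stretch is shown because *CDK1* is the kinase gene that fell most, with both elements in capitals and the strand of the gene written 5′ to 3′.
CDK1: tctgATTGGctgcTTTGAAagtctacgggc

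*CDK2* (ENSG00000123374), on chromosome 12 from 55966769 to 55972784 on the plus strand, encodes the kinase that partners cyclins E and A in S phase. It had 25.6, 28.8 and 30.8 CPM with DMSO and 12.6, 16.1 and 18.0 CPM with TH588, in replicates A, B and C. In both groups replicate A was lowest and replicate C highest, and the groups did not overlap. Its mean went down from 28.4 ± 2.61 to 15.5 ± 2.77 CPM (SD, n = 3 each). The log2 difference, TH588 minus DMSO, was -0.86 ± 0.13 (standard error), with an edgeR adjusted p of 0.00015. Exons of other genes, on the opposite strand, cover 16.8% of its exon bases. ENSG00000258554 covers 14.5% and had no count in any of the 6 libraries. The library kit, TruSeq RNA v2, does not mark strand.

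*CDK4* (ENSG00000135446), on chromosome 12 from 57747727 to 57756013 on the minus strand, encodes the kinase that cyclin D activates in G1. Per kilobase it was by far the most abundant of the 9 genes, and it had 301.6, 313.9 and 309.4 CPM in the DMSO libraries. The TH588 libraries held 184.9, 205.8 and 186.7 CPM, all below the DMSO range. The mean fell from 308.3 ± 6.21 to 192.5 ± 11.6 CPM (SD, n = 3 each). On the log2 scale the difference was -0.68 ± 0.08 (standard error), with an edgeR adjusted p of 1.70e-05. The fall is the smallest of the 3 tested CDK genes, and its replicates were close to each other. Exons of *TSPAN31* on the opposite strand cover 43.2% of its exon bases, and how such reads were counted is not given in the sources used here. At the main start site its promoter window held no match to the cell cycle homology region, the CCAAT box or either E2F-type site, and 3 to GGGCGG.

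*CDK6* (ENSG00000105810), on chromosome 7 from 92604921 to 92836594 on the minus strand, encodes the other partner of D cyclins and was close to undetected. It had 10 counts in DMSO replicate A, 0 in DMSO replicates B and C, 0 in TH588 replicate A, and 1 in each of TH588 replicates B and C. Thus 5 of the 6 libraries were at or under the limit of 3 counts that a count of 0 allows. That limit was 0.0276 to 0.112 CPM across the libraries and covers counting error only. *CDK6* was therefore removed by the filter on low counts, and no difference between the groups could be detected at this depth. With no filter its log2 difference was -2.03 ± 1.83 (standard error), with an edgeR adjusted p of 0.44, which rests on the 10 reads of 1 library.

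*CDC25A* (ENSG00000164045), on chromosome 3 from 48157146 to 48188402 on the minus strand, encodes the phosphatase that activates CDK2 at the start of S phase and also CDK1. Its DMSO levels were 68.7, 64.4 and 68.2 CPM, and its TH588 levels 16.0, 20.5 and 17.5 CPM, in the order of replicates A, B and C. The 3 DMSO libraries were within a few CPM of each other, and so were the 3 TH588 libraries far below them. On average it fell from 67.1 ± 2.32 to 18.0 ± 2.30 CPM (SD, n = 3 each). The log2 difference, TH588 minus DMSO, was -1.89 ± 0.10 (standard error), with an edgeR adjusted p of 5.62e-08, and 99.6% of the genes tested had a higher one. No exon of another gene overlaps its exons.

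The 250 bases before the *CDC25A* start site, at chr3:48188418-48188667 on the minus strand, are shown because this phosphatase gene fell most and its window differs from that of *CDK1*. Capitals mark 2 inverted CCAAT boxes, written ATTGG, and a pair of TTGGCGC matches, 1 on each strand, that overlap each other. The window held no match to the cell cycle homology region, and 2 matches to GGGCGG that are left in lower case.
CDC25A: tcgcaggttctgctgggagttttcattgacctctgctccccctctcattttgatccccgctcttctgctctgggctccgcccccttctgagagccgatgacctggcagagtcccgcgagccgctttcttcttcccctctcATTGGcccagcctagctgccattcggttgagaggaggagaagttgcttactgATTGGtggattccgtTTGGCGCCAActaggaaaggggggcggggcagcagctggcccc

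*CDC25B* (ENSG00000101224), on chromosome 20 from 3786772 to 3806121 on the plus strand, encodes the phosphatase thought to start CDK1 activation at the centrosome. It had 31.4, 28.9 and 32.0 CPM with DMSO and 22.9, 28.2 and 26.2 CPM with TH588. The lowest DMSO library and the highest TH588 library, both replicate B, nearly met. The means were 30.8 ± 1.67 and 25.8 ± 2.65 CPM (SD, n = 3 each). On the log2 scale the difference was -0.25 ± 0.10 (standard error), with an edgeR adjusted p of 0.0472. The call was lost in 13 of 15 alternatives, with adjusted p-values of 0.022 to 0.423 over all 15. Without TH588 replicate A the log2 fold change was -0.17 (adjusted p = 0.136 from edgeR's test), and with library size only it was -0.14 (adjusted p = 0.423).

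*CDC25C* (ENSG00000158402), on chromosome 5 from 138285265 to 138338355 on the minus strand, encodes the phosphatase that activates CDK1 with cyclin B at mitosis and that 14-3-3 proteins hold back. Its DMSO libraries held 16.1, 14.4 and 16.9 CPM, and its TH588 libraries held 10.4, 13.1 and 11.5 CPM. The groups were separate, with DMSO replicate B and TH588 replicate B nearest to each other. Its mean went down from 15.8 ± 1.27 to 11.7 ± 1.38 CPM (SD, n = 3 each). On the log2 scale the difference was -0.43 ± 0.12 (standard error), with an edgeR adjusted p of 0.00951. The call was lost with library size only (-0.32, adjusted p = 0.11) and without DMSO replicate C (-0.36, adjusted p = 0.0529). Exons of *FAM53C* on the opposite strand cover 9.6% of its exon bases.

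At the main start site, the promoter window of *CDC25C* held 1 match to TTTGAA, 1 to CCAAT and 1 to GGGCGG, and none to either E2F-type site. The 30 bases around TTTGAA, from 45 to 16 bases before that start, lie at chr5:138331820-138331849 on the minus strand. They are shown to set this modestly lower gene beside *CDK1*, whose window holds the same TTTGAA letters, in capitals.
CDC25C: tgggctggcggaaggTTTGAAtggtcaacg

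The window of *CDC25B* at its main start site held 1 match to CCAAT and 3 to GGGCGG, and no other motif searched. At their main start sites, the windows of *CDK4* and *CDK6* held 3 matches to GGGCGG each and nothing else. Windows at other start sites of *CDC25B* and *CDC25C* did hold matches to TTCCCGC, and another window of *CDC25B* held TTTAAA. Another window of *CDK1* held both TTTAAA and TTTGAA, and another of *CDC25C* held TTTGAA. No test was set on these counts of letters over 6 genes.

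*WEE1* (ENSG00000166483), on chromosome 11 from 9573681 to 9593457 on the plus strand, encodes the nuclear kinase that inhibits CDK1 and CDK2. It had 42.4, 44.9 and 43.9 CPM in the DMSO libraries and 22.7, 23.7 and 28.7 CPM in the TH588 libraries. The DMSO libraries were nearly equal, while TH588 replicate C was above the other two of its group and still far under the DMSO range. The mean fell from 43.7 ± 1.25 to 25.0 ± 3.24 CPM (SD, n = 3 each). On the log2 scale the difference was -0.80 ± 0.10 (standard error), with an edgeR adjusted p of 3.27e-05. Another gene's exon covers 1.1% of its exon bases.

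*PKMYT1* (ENSG00000127564), on chromosome 16 from 2968024 to 2980539 on the minus strand, encodes the membrane-bound kinase that inhibits CDK1. It had 12.0, 10.6 and 10.8 CPM with DMSO and 3.44, 5.90 and 4.33 CPM with TH588. Per kilobase it was the least abundant tested member, and its TH588 libraries spread most in relative terms. On average it fell from 11.2 ± 0.760 to 4.55 ± 1.25 CPM (SD, n = 3 each). The log2 difference, TH588 minus DMSO, was -1.26 ± 0.17 (standard error), with an edgeR adjusted p of 6.26e-05. Exons of other genes cover 31.6% of its exon bases, 24.5% by *PAQR4* and 7.2% by *KREMEN2*, both on the opposite strand.

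Levels were then set in order per kilobase of exon. With DMSO, *CDK4* stood first at 97.3 ± 1.96 CPM per kb (SD, n = 3), followed by *CDC25A* at 16.3 ± 0.564 and *CDK1* at 14.9 ± 1.27, whose libraries overlapped. *CDK2* (7.29 ± 0.671) and *CDC25B* (7.13 ± 0.388) overlapped as well, and so did *CDC25C* (5.19 ± 0.417) and *WEE1* (4.73 ± 0.135), ahead of *PKMYT1* (2.22 ± 0.151). With TH588, *CDK4* was still first at 60.8 ± 3.66 CPM per kb (SD, n = 3), and *CDC25B* was second at 5.97 ± 0.614. *CDC25A* (4.38 ± 0.558), *CDK1* (4.06 ± 0.690), *CDK2* (3.99 ± 0.712) and *CDC25C* (3.83 ± 0.454) followed, each overlapping the next. *WEE1* (2.71 ± 0.351) and *PKMYT1* (0.905 ± 0.248) stood below them without overlap. The gap that separated *CDC25A* and *CDK1* from *CDK2* with DMSO was not seen with TH588. Levels were divided by the full exon length, of which other genes share 43.2% for *CDK4*, 31.6% for *PKMYT1* and 16.8% for *CDK2*. The part of such shared bases in this order was not tested.

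Ratios of CPM per kb within a library do not depend on its depth or scaling, and they are given as a description with no test. *CDK1* over *CDK2* was 2.05, 2.10 and 2.00 with DMSO, and 1.02, 1.05 and 0.988 with TH588, in the same replicate order. By this measure the 2 kinase transcripts were at near parity after TH588, and replicates differed by little. Other genes share 16.8% of the exon bases of *CDK2* and 0.0% of those of *CDK1*. The part of these shared bases in the value of the ratio was not tested. *CDC25A* made up 57.1%, 57.8% and 56.1% of the summed CDC25 level with DMSO and 30.9%, 31.5% and 30.2% with TH588. *CDC25B* made up 24.9%, 24.7% and 25.1% with DMSO and 42.1%, 41.3% and 43.1% with TH588. *CDC25C* made up the rest, 17.5% to 18.8% with DMSO and 26.8% to 27.2% with TH588. The leading CDC25 transcript was therefore *CDC25A* in each DMSO library and *CDC25B* in each TH588 library.

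The ratio of the inhibiting kinases to the activating phosphatases, *WEE1* and *PKMYT1* summed over the 3 CDC25 genes summed, was 0.239, 0.257 and 0.234 with DMSO and 0.249, 0.236 and 0.282 with TH588. These ranges overlapped, and the mean log2 ratio differed by 0.07 between the groups. No difference in this ratio beyond the spread between libraries was seen. Within the kinases, *WEE1* over *PKMYT1* was 1.92, 2.30 and 2.20 with DMSO and 3.60, 2.18 and 3.62 with TH588, so TH588 replicate B lay inside the DMSO range.

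**Figure D2:**
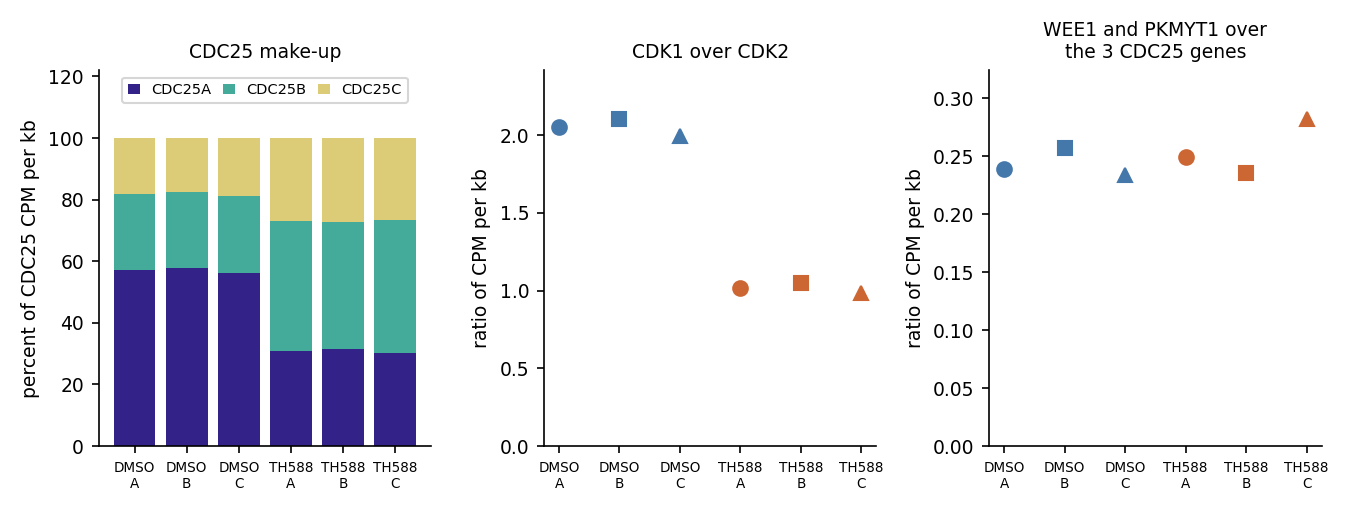
Left, the share of each CDC25 gene in their summed CPM per kb, in percent, for each library; middle and right, the ratio of CPM per kb of *CDK1* over *CDK2* and of *WEE1* and *PKMYT1* over the 3 CDC25 genes, with 1 point per library (blue DMSO, orange TH588). The *CDC25A* share lies between 56.1% and 57.8% with DMSO and between 30.2% and 31.5% with TH588, and the *CDK1* ratio is near 2 with DMSO and near 1 with TH588, while the last ratio overlaps between groups.

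The genes whose libraries followed each member most closely were found among those at or above a mean of 1 log2 CPM, by the Euclidean distance between centred log2 CPM values over the 6 libraries. For *CDK1* they were *GLB1L2* (distance 0.171), the replication licensing gene *CDC6* (0.183) and *COQ3* (0.187). For *CDC25A* they were *SKA3* (0.158), which acts at the kinetochore, the histone gene *H3C8* (0.181), which has near-identical copies, and *POLQ* (0.202), a DNA repair polymerase. For *PKMYT1* they were *CDCA4* (0.196), *DUSP9* (0.210) and the chromatin assembly gene *CHAF1A* (0.211). For *WEE1* they were *MRPL15* (0.083), *RIF1* (0.083) and *TMX1* (0.115), and for *CDK2* they were *TFAM* (0.146), *PNO1* (0.151) and *HAUS1* (0.156). For *CDK4* they were *BUD13* (0.067), *NAF1* (0.067) and *SLC35B1* (0.078). *CDC25B* lay nearest to *TBCD* (0.070), *SOX13* (0.090) and *GPLD1* (0.091), and *CDC25C* to *ZBTB21* (0.115), *INTS5* (0.126) and *THRA* (0.127). Among the members themselves, *CDC25B* and *CDC25C* (0.238), *CDK2* and *WEE1* (0.275), and *CDK1* and *CDC25A* (0.351) were each near each other, while *CDK1* and *CDC25B* were farthest apart (2.02). All points share the same 6 libraries and their scaling, and likeness says only that levels moved alike across them.

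The genes around the switch were described by lists written with earlier results of these data known. Of 10 D, E, A and B cyclin genes, all tested, 6 were lower, 1 was higher and 3 were not called, with a median log2 fold change of -0.56. *CCNE2* and *CCNE1*, partners of CDK2, fell by 2.06 and 1.05 on the log2 scale, and *CCNA2*, which serves both CDK2 and CDK1, fell by 1.58 (adjusted p at most 1.79e-06 from edgeR's test). Of the 3 D cyclin genes, *CCND3* fell by 0.69 on the log2 scale (adjusted p = 0.000267 from edgeR's test), and *CCND1* and *CCND2* had log2 fold changes of 0.06 and 0.05 and were not called. These counts, and those of the lists that follow, stand beside 25.3% lower, 24.2% higher and 49.6% called in either direction among all genes tested.

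Of 8 CDK inhibitor genes, 7 were tested, of which 3 were higher, 2 were lower and 2 were not called, against 24.2% higher and 25.3% lower among all genes, with a median of 0.04. *CDKN1A*, which encodes the p53 target p21, rose from 5.35 ± 0.460 to 139.8 ± 24.7 CPM (SD, n = 3 each). *CDKN2C*, an inhibitor of CDK4 and CDK6, fell by 1.18 and *CDKN3*, a phosphatase that acts on CDK2, fell by 0.71 on the log2 scale (adjusted p = 4.87e-06 and 0.000353 from edgeR's test). Of the 6 genes for the CDK-activating kinase, CKS subunits and the chaperone CDC37, 3 were lower and 3 were not called, with a median of -0.26. Among all genes, 25.3% were lower and 49.6% were called in either direction. The 3 that fell were *CKS1B* (-0.81), *CDC37* (-0.59), which loads CDK4 onto its chaperone, and *CKS2* (-0.36, groups overlapping). The genes of the CDK-activating kinase, *CDK7*, *CCNH* and *MNAT1*, were not called.

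Of 11 genes for kinases that act on CDC25 or WEE1, with their cofactors, 8 were lower, 1 was higher and 2 were not called, against 25.3% lower and 24.2% higher among all genes, with a median of -0.996. *CLSPN*, the adaptor through which ATR activates CHK1, fell from 158.9 ± 11.7 to 34.3 ± 2.84 CPM (SD, n = 3 each). On the log2 scale the difference was -2.21. *CHEK1*, which encodes the kinase that marks CDC25A for destruction, fell by 1.26 and *PLK3* rose by 1.23 on the log2 scale (adjusted p = 3.70e-07 and 2.21e-05 from edgeR's test). Of 15 genes for turnover and anchoring of CDC25 and WEE1, 7 were lower, 4 were higher and 4 were not called, with a median of -0.24. The 14-3-3 genes *YWHAQ* (-0.74), *YWHAB* (-0.70) and *YWHAH* (-0.68) fell most. Of the other 14-3-3 genes, *YWHAE* (-0.39) and *YWHAZ* (-0.38) were lower too, and *YWHAG* was not called. *SFN* was called higher at 3.14 (adjusted p = 0.00629 from edgeR's test), at a low level with 0, 1 and 5 counts in the DMSO libraries. Of 15 tested genes for phosphatases that act on CDK substrates, with regulators such as *MASTL* and *ARPP19*, 7 were lower, 1 was higher and 7 were not called. Their median was -0.20. *MASTL*, the kinase that restrains such a phosphatase in mitosis, fell by 0.93, *PPP1CC* by 0.62 and *ARPP19* by 0.59 on the log2 scale.

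The other CDK family genes serve transcription and other processes. Of 15 tested, 3 were lower, 2 were higher and 10 were not called, against 25.3% lower and 24.2% higher among all genes. Their median log2 fold change was -0.0031, and that of the 3 tested cell cycle CDK genes was -0.86. With DESeq2 and with no filter, where the near-undetected *CDK6* enters, the latter was -1.36 and -1.35. *CDK18* rose from 4.03 ± 0.638 to 10.5 ± 1.33 CPM and *CDK19*, a Mediator kinase, from 16.1 ± 1.19 to 28.5 ± 0.595 CPM (SD, n = 3 each; log2 fold changes 1.39 and 0.82, adjusted p = 1.02e-05 and 1.60e-05 from edgeR's test). *CDK14* fell by 0.60 on the log2 scale (adjusted p = 0.000526).

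**Figure D3:**
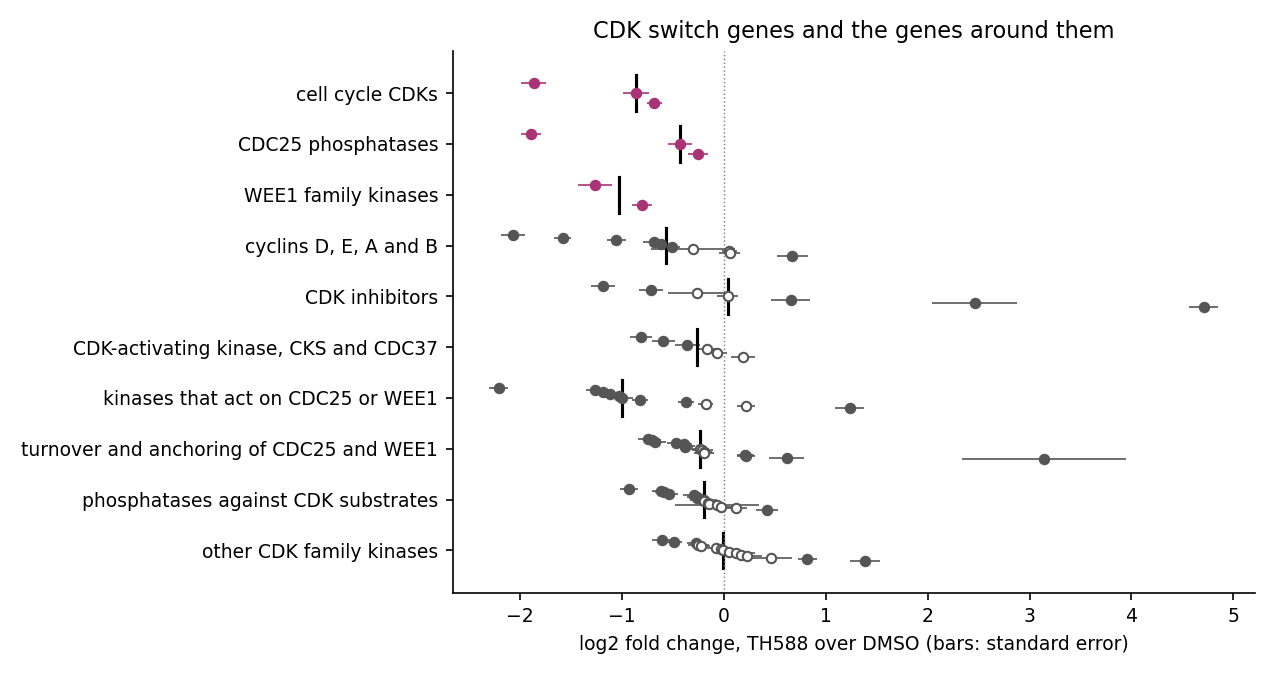
Log2 fold change of TH588 over DMSO for each tested gene of the members (purple) and of 7 surrounding lists (grey); bars are standard errors, filled points passed an adjusted p under 0.05, and black lines are list medians. The 8 members lie left of 0, while the other CDK family kinases scatter around it.

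**Figure D4:**
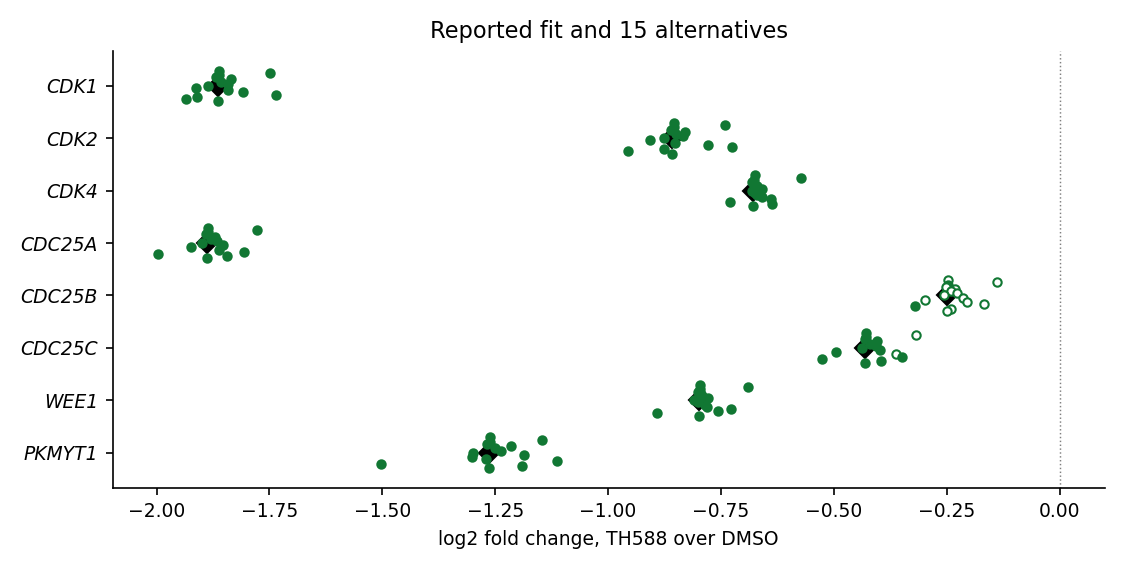
Log2 fold change of each of the 8 tested genes in the reported fit (diamond) and in 15 alternatives (circles), filled where the threshold was passed. Points keep to the left of 0 for each gene, with open circles at *CDC25B* in 13 alternatives and at *CDC25C* in 2.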

How the data were processed

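RNA of A2780 cells treated with vehicle or TH588 was sequenced in 3 libraries per group. Per the labels, the authors aligned reads to GRCh38 with TopHat and counted them per gene with featureCounts 1.4.6, and the deposited table holds raw counts and the exon length of each gene. UCSC gene models are named in the methods, but genes carry Ensembl identifiers, of which 57754 of 58336 matched a symbol. The handling of strand, multiply mapped and overlapping reads is not given in the sources used here. The authors used DESeq2 for their own comparison.

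The members and lists were chosen with earlier results of these data known. The main test was edgeR 4.0.16 (R 4.3.3): default filter on low counts, TMM, quasi-likelihood test of treatment, and Benjamini-Hochberg adjusted p under 0.05 over the 15844 genes kept. The standard error is the log2 fold change over the square root of F. An exact permutation test of 3 libraries against 3 cannot go below p = 0.1. The fit was tested on simulated counts. Replicates of a group differed by more than sampling noise (chi-square per degree of freedom 25.2 to 179.9), so each counts as 1. The study calls them biological triplicates from independent experiments, and p-values measure only the spread between these samples. Named were all members, from each list the 3 largest called changes (mean log2 CPM 1 or more), the 3 nearest genes of each member, and genes covering over 5% of a member's exons. The D cyclin genes, *CDK7*, *CCNH*, *MNAT1*, *SFN*, *YWHAE*, *YWHAG* and *YWHAZ* were named after their values were seen, and the ratio of *WEE1* to *PKMYT1* was added then. A ratio of *CDK6* to *CDK4* was not computed, since *CDK6* had no count in some libraries. Alternatives were DESeq2 1.42.0 and its size factors, limma-voom (limma 3.58.1), library size only, TMM without the 10 most abundant genes, no filter, leaving out each library, a minimum of 10 counts in all libraries, CPM ratios not divided by exon length, the replicate letter as a block, and an adjusted p under 0.01.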

Additional observations from a re-analysis of the deposited data

How the results depend on the processing

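All 8 tested members kept a log2 fold change below 0 in all 15 alternatives, and *CDK1*, *CDK2*, *CDK4*, *CDC25A*, *WEE1* and *PKMYT1* passed the threshold in each. *CDC25B* lost its call at -0.25 with DESeq2's size factors, with DESeq2 and at an adjusted p under 0.01, at -0.14 with library size only, -0.23 with limma-voom, -0.24 with no filter, -0.23 with at least 10 counts in every library and -0.26 with the replicate block. It ranged from -0.32 to -0.17 with each library left out. *CDC25C* lost its call with library size only (-0.32), and its values spanned -0.53 to -0.35 with each library left out, where it lost its call without DMSO replicate C. The cause was not tested. Of the 3 CDC25 genes, 1 was called with library size only, and 1 to 3 were called with a library left out. Of the phosphatase list, 5 genes were called with library size only and at an adjusted p under 0.01, and 5 to 8 with a library left out. Without division by exon length, the share of *CDC25B* in the CDC25 sum differed by 19.5 percentage points between the groups, against 17.3, and that of *CDC25C* by 7.14, against 8.89. The number of called genes, 7852, stayed within 1.5 times under each alternative, from 5831 at an adjusted p under 0.01 to 8225 with limma-voom, and was 7195 with the replicate block. Library size only moved the all-gene median (log2) from 0.02 to 0.13 and the share of calls that were higher from 48.9% to 60.4%. With library size only, list medians moved to -0.16 for the CDK-activating kinase list, -0.14 for turnover and anchoring and -0.09 for phosphatases. They also moved to -0.46 for cyclins, -0.88 for kinases that act on CDC25 or WEE1 and 0.11 for other CDK genes. Some medians moved with a library left out, such as that of cyclins to -0.67 without TH588 replicate B. The cell cycle CDK median moved from -0.86 to -1.36 with DESeq2 and -1.35 with no filter, which take in *CDK6*. Medians of the CDK inhibitor and other CDK lists lay near 0 and changed sign in 2 and 9 alternatives, to at most -0.20 and 0.11. Same-letter libraries did not deviate together from their group means (correlations -0.26, -0.35 and 0.01). Libraries of different letters had correlations from -0.29 to 0.56, the highest for DMSO replicate A with TH588 replicate B. With 3 libraries per group such values cannot settle whether the libraries were paired. Besides *CDC25B* the replicate block changed no member's call. Depth limits *CDK6*, where a count of 0 in TH588 replicate A allows up to 0.112 CPM.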

Other observations

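Of the 4 tested genes that cover over 5% of a member's exon bases on the opposite strand, none was called lower after TH588, and *TSPAN31* and *KREMEN2* were called higher. *TSPAN31*, whose exons cover 43.2% of those of *CDK4*, had 4.89, 4.44 and 5.64 CPM with DMSO and 10.1, 9.01 and 11.1 CPM with TH588, 1.01 higher on the log2 scale (edgeR adjusted p of 6.10e-05), while *CDK4* was lower. *KREMEN2*, beside *PKMYT1*, rose from 5.79 ± 0.679 to 9.97 ± 2.41 CPM (SD, n = 3 each; log2 fold change 0.80, adjusted p = 0.00197 from edgeR's test). *PAQR4* (0.01, adjusted p = 0.971) and *FAM53C* (0.21, adjusted p = 0.0821), which overlap *PKMYT1* and *CDC25C*, were not called by the same edgeR test. ENSG00000258554, with 565 exon bases, covers 14.5% of the exon bases of *CDK2* and had no count in any library. No read in the bases it shares with *CDK2* was thus counted to it. Whether reads in shared bases were counted to the member or left out, and so their part in its value, was not tested.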
